A study of Mus musculus with 30 samples.

Results

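NRF2, encoded by Nfe2l2, and a set of its redox target genes were followed through RNA-seq of AML12 cells, a mouse hepatocyte line. The set is a list of gene names that was drawn up with earlier results of these data known. It holds 10 genes of the 49089 gene identifiers in the count data: Nfe2l2, Keap1, Nqo1, Hmox1, Txnrd1, Txn1, Srxn1, Prdx1, Osgin1 and Ftl1. The enzymes of glutathione metabolism were left aside. All 10 were matched by Ensembl identifier, and 9 of them passed the filter on low counts, Nqo1 being the exception.

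The 30 samples fell into 8 groups. Control cells, FoxK1 KD cells, FoxK2 KD cells and cells with knockdown of both forkhead factors (DKD) were measured without insulin (basal) and after 6 h of 100 nM insulin. There were 4 replicates per group and 3 in the insulin groups of Control and DKD. All cells were transfected transiently with siRNA, a nonspecific one in Control, and kept overnight in serum-free medium before the treatment. A basal sample is a 0 min sample by its label and a mock-treated one by the methods. The methods define n for the whole study as animals or independent experiments, and the labels do not say of these replicates whether each was a separate culture. The p-values measure the spread between these samples, part of which may be technical.

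Each sample had between 2141460 and 5668270 counts. In FoxK1 KD cells the insulin samples were shallower (2345903 to 2673390) than the basal samples (3070960 to 4423978). Foxk1 was lower by 1.14 ± 0.12 (log2, SE) in FoxK1 KD than in Control at basal (log2 fold change -1.14, adjusted p = 6.19e-08), and Foxk2 was at -1.57 ± 0.09 in FoxK2 KD (adjusted p = 8.3e-15). In DKD the values were -0.82 and -1.49, so both transcripts were reduced and neither was lost. Foxk2 was also lower in FoxK1 KD than in Control at basal, without overlap (-0.26, adjusted p = 0.0487). Insulin itself lowered Foxk1 in Control (-0.62, adjusted p = 0.00037). After insulin the Foxk1 difference from Control was smaller, at -0.78 in FoxK1 KD and -0.62 in DKD. Of 10 hepatocyte markers, Hnf4a, Apob, Krt8 and Krt18 were abundant, whereas the median of Alb was 6.77 CPM (counts scaled to 1000000 per TMM-adjusted library) and those of Apoa1 and Ahsg were 0.371 and 0.277. Of 4 cholangiocyte markers, Krt19 and Sox9 had medians of 471 and 189 CPM and Epcam had no count. The fibroblast, leukocyte and endothelial markers summed to at most 1.39, 4.43 and 0.55 CPM in any sample, with Pdgfrb, Adgre1 and Cd3e at 0 in all 30. These are bulk samples, in which fewer cells of a kind and less RNA per cell cannot be told apart. Over the tested genes, Control basal replicate 1 stood apart from its group. On the second principal component of log2-CPM it was at 22.0, the other Control basal samples between -9.83 and -7.54, and DKD basal samples between 16.4 and 27.1. This sample enters every basal comparison with Control, the Control insulin effect and every difference between insulin effects.

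NRF2 is a basic leucine zipper transcription factor that pairs with small MAF proteins and binds antioxidant response elements in DNA. In unstressed cells KEAP1 holds it for ubiquitination by a CUL3 ligase and it is degraded by the proteasome. Electrophiles and oxidants modify cysteines of KEAP1, NRF2 then accumulates, and in liver it raises genes for detoxification, thioredoxin-dependent peroxide removal, heme breakdown, iron storage and NADPH production. Because this control acts mostly on the protein, the Nfe2l2 transcript is no measure of NRF2 activity, and transcripts were all that was measured here.

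Short stretches of the promoters are shown because they hold the letters NRF2, AP-1 and forkhead factors are known to bind. RefSeq promoters (GRCm38.p6, from 250 bases before to 50 after the start site) were found for 9 of the 10 genes, all but Hmox1, with 11 promoters in all. Each was searched on both strands for TGACNNNGC, the core of the antioxidant response element, for the AP-1 site TGACTCA and for the forkhead site GTAAACA. Capitals mark the matches, some of which are the reverse complement of the searched letters.

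Srxn1 (chr2:152105407-152105500, + strand, 2 AP-1 matches): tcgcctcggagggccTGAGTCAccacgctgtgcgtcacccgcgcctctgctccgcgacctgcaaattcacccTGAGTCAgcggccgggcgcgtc
Prdx1 (chr4:116685451-116685489, + strand, antioxidant response element core overlapping an AP-1 match): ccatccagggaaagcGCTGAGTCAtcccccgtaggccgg
Txnrd1 (chr10:82859099-82859137, + strand, antioxidant response element core): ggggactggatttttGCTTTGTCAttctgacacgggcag
Nfe2l2 (chr2:75704880-75704913, − strand, antioxidant response element core): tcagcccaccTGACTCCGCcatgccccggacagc
Osgin1 (chr8:119437035-119437071, + strand, AP-1 match): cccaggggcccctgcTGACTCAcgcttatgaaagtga

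The antioxidant response element core was found in 4 of these 11 promoters, 1 each of Nfe2l2, Srxn1, Prdx1 and Txnrd1, against 12.4% of all 32851 mouse promoters of this length. The Srxn1 match lies after the start site, from base 29 to base 37. AP-1 letters were found in 3 of the 11, 1 each of Srxn1, Prdx1 and Osgin1, against 5.2% of all promoters. The forkhead letters were in none of the 11, against 3.65% of all promoters. A match describes the letters in this window and shows no binding. A promoter without a match may still hold variants of these sites, which were not searched.

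The levels of the 10 genes spanned more than 3 orders of magnitude, as the plot of levels per length shows. On the scale of CPM divided by exon length in kilobases (RPKM), Ftl1, the ferritin light chain that stores iron, was the highest of the 10 genes, with a median of 2748 over the 30 samples. Prdx1, a peroxiredoxin that reduces hydrogen peroxide, followed with 196, and Nfe2l2 itself with 59.4. Hmox1 (32.4) and Txnrd1 (31.9) lay next and their ranges overlapped. Txn1 (20.9) and Osgin1 (19.5) also overlapped, as did Srxn1 (12.5) and Keap1 (10.4). With the longest transcript in place of all exons, the order within each of these 3 pairs turned. Nqo1, the quinone reductase often used to read out NRF2, had a median of only 0.466 RPKM.

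**Figure D1:**
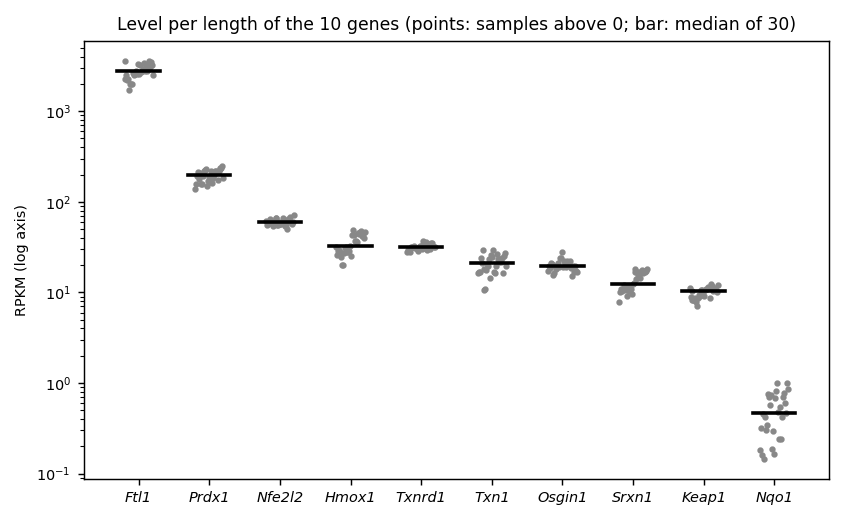
RPKM (log axis) of each gene in the samples above 0 (points) with the median of 30 samples (bar). Ftl1 is highest with a median of 2748 and Nqo1 lowest with 0.466.

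Nqo1 (chr8:107388225-107403206, − strand) had 82 counts in all 30 samples together. In Control cells it was at 0.28, 0.50, 0.25 and 0.71 CPM at basal and 1.05, 1.26 and 1.57 after insulin. Over all samples it ranged from 0.00, in 1 FoxK2 KD basal sample, to 1.57. Its values rest on very few reads, and the filter on low counts left it out of the main fit.

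The regulators are taken first. Nfe2l2 (chr2:75675513-75704641, − strand) was at 234, 213, 214 and 224 CPM in Control basal samples and at 219, 228 and 249 after insulin. FoxK1 KD samples gave 242, 223, 222 and 204 at basal and 229, 207, 213 and 189 after insulin. FoxK2 KD samples gave 223, 235, 251 and 249.7, then 244, 234, 255 and 229. DKD samples gave 212, 208, 227 and 216, then 218, 228 and 269. The groups overlapped in each comparison. In none of the 13 comparisons, which were 3 knockdowns against Control at basal, the same 3 after insulin, 4 insulin effects and 3 differences between insulin effects, did Nfe2l2 pass an adjusted p of 0.05 (edgeR quasi-likelihood test, Benjamini-Hochberg over 11368 genes). Its insulin effects in log2 were 0.06 in Control (95% interval -0.10 to 0.23), -0.09 in FoxK1 KD (-0.25 to 0.06), 0.00 in FoxK2 KD (-0.15 to 0.16) and 0.14 in DKD (-0.02 to 0.31).

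Keap1 (chr9:21229730-21239361, − strand), the adaptor that delivers NRF2 for degradation, varied more. Control samples were at 53.0, 41.8, 48.9 and 38.4 CPM at basal and 50.4, 50.6 and 51.6 after insulin. FoxK1 KD samples were at 38.2, 38.3, 40.9 and 36.4, then 53.9, 52.3, 40.6 and 57.5. FoxK2 KD samples were at 33.0, 40.7, 44.1 and 42.9, then 54.9, 48.4, 52.2 and 51.3. DKD samples were at 50.5, 49.4, 47.7 and 43.4, then between 47.2 and 56.4. Insulin samples lay above basal samples without overlap in FoxK2 KD, and in FoxK1 KD 1 insulin sample (40.6) lay among the basal ones. Keap1 rose with insulin by 0.41 ± 0.11 in FoxK1 KD (log2 ± SE, adjusted p = 0.00429) and by 0.36 ± 0.11 in FoxK2 KD (adjusted p = 0.0104). The values in Control (0.17 ± 0.11) and DKD (0.11 ± 0.11) did not pass, and the differences from Control did not pass either (adjusted p = 0.518 for FoxK1 KD and 0.916 for FoxK2 KD). Keap1 is GC-rich (58.0%), and over 11346 genes the insulin effect followed GC content with a Spearman rho of 0.33 in FoxK1 KD and 0.24 in FoxK2 KD. With that trend removed the FoxK1 KD value was 0.23 (adjusted p = 0.0782), and without FoxK2 KD basal replicate 1 the FoxK2 KD value was 0.28 (adjusted p = 0.0525). An antisense gene, Gm16754, overlaps Keap1 and had 303 counts beside 5052 for Keap1, and no source used here states whether counting used strand.

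Hmox1 and Srxn1 were the members that responded to insulin in every genotype. Hmox1 (chr8:75093621-75100589, + strand) encodes heme oxygenase 1, which splits heme into biliverdin, iron and carbon monoxide. Srxn1 (chr2:152105516-152111376, + strand) encodes sulfiredoxin, which restores overoxidized peroxiredoxins. Both rose, by between 1.43-fold and 1.66-fold.

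Hmox1 stood at 56.1, 45.8, 50.1 and 50.9 CPM in Control basal samples and at 75.1, 86.6 and 75.5 after insulin. In FoxK1 KD it went from 49.1, 43.6, 35.5 and 35.3 to 65.4, 64.2, 62.7 and 78.3. In FoxK2 KD it went from 47.5, 53.9, 56.0 and 48.6 to 77.4, 81.1, 84.3 and 74.0, and in DKD from 49.4, 49.7, 57.4 and 44.2 to 77.3, 70.4 and 82.2. Every insulin sample, at 62.7 or more, lay above every basal sample, at 57.4 or less. The rise was 1.56-fold in Control (95% interval 1.34 to 1.81, adjusted p = 2.96e-05) and 1.66-fold in FoxK1 KD (1.42 to 1.92, adjusted p = 3.49e-06). In FoxK2 KD it was 1.53-fold (1.33 to 1.77, adjusted p = 1.51e-05) and in DKD 1.55-fold (1.32 to 1.81, adjusted p = 0.000101).

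Srxn1 was at 22.1, 28.5, 30.5 and 29.5 CPM in Control basal samples and at 47.7, 50.9 and 39.3 after insulin. FoxK1 KD samples moved from 31.0, 33.7, 32.0 and 30.2 to 47.7, 44.1, 47.8 and 41.2. FoxK2 KD samples moved from 25.9, 30.6, 29.2 and 33.6 to 47.2, 49.2, 46.1 and 48.5, and DKD samples from 30.4, 26.8, 35.2 and 35.4 to 47.3, 49.1 and 51.5. Here too every insulin sample lay above every basal sample (39.3 at the lowest against 35.4 at the highest). The rise was 1.65-fold in Control (1.41 to 1.94, adjusted p = 1e-05), 1.43-fold in FoxK1 KD (1.22 to 1.66, adjusted p = 0.000474), 1.59-fold in FoxK2 KD (1.38 to 1.84, adjusted p = 7.78e-06) and 1.55-fold in DKD (1.32 to 1.82, adjusted p = 0.000138).

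Of all tested genes, 1.64% had every insulin sample above every basal sample, and 3.66% were called up by insulin in all 4 genotypes. Of the 9 tested members, these 2 met both descriptions and the other 7 met neither. The insulin calls of Hmox1 and Srxn1 in the 4 genotypes were kept under the other tools, filters and fits, with the GC trend removed and with each sample left out in turn. With a fold above 1.5 required, Srxn1 in FoxK1 KD was the exception. Neither gene shared any 50-base stretch of its transcripts with another gene.

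**Figure D2:**
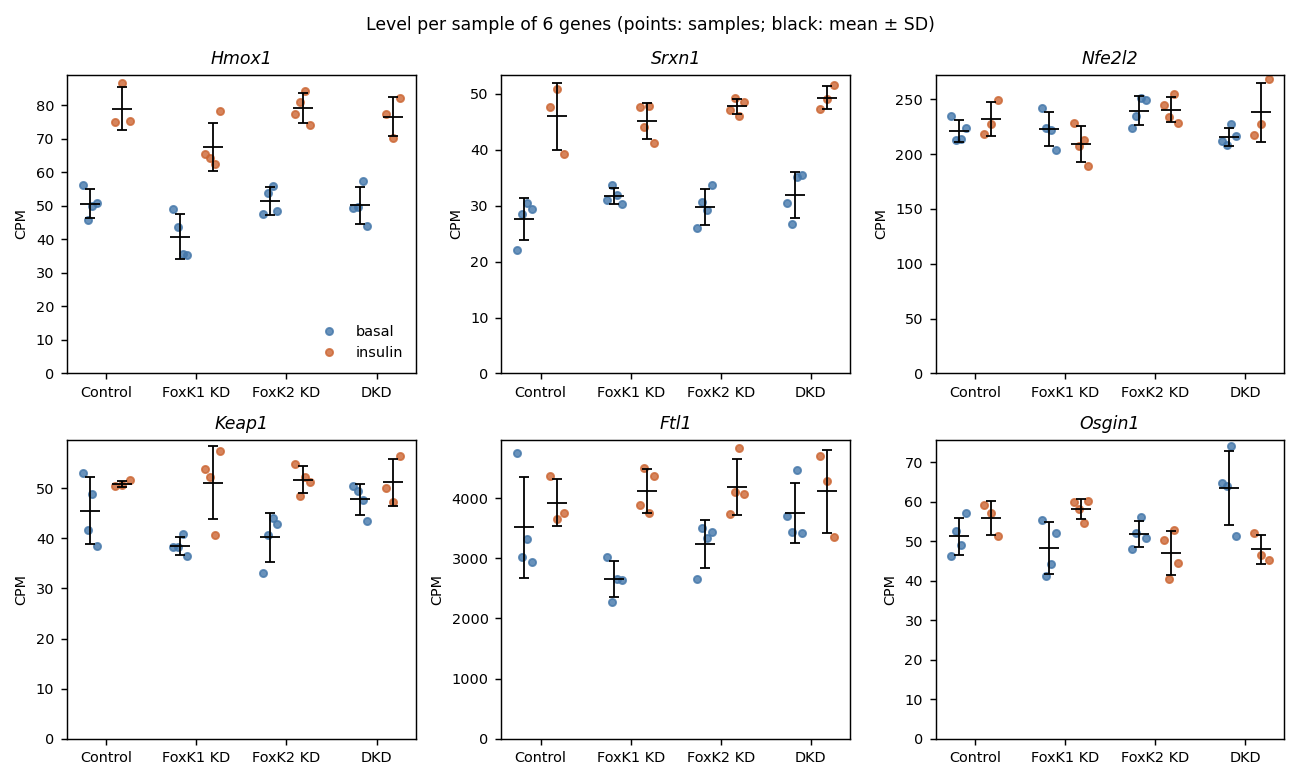
CPM of 6 of the genes in each sample (points, basal blue and insulin orange) by genotype, with mean ± SD in black. Hmox1 and Srxn1 show insulin samples above basal samples in all 4 genotypes, Nfe2l2 does not, and Osgin1 in DKD is lower after insulin with 1 overlapping sample.

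The thioredoxin system removes peroxides with electrons from NADPH: thioredoxin reductase (Txnrd1) reduces thioredoxin (Txn1), which reduces peroxiredoxins such as Prdx1. Txnrd1 (chr10:82833951-82897712, + strand) was at 199, 206, 213 and 198 CPM in Control basal samples and at 264, 244 and 218 after insulin, which did not overlap. Insulin raised it in Control by 0.25 ± 0.08 (log2 ± SE, adjusted p = 0.0137). This call was lost without Control insulin replicate 1 (0.18, adjusted p = 0.121), with only the groups compared in the fit (adjusted p = 0.169) and with every gene of at least 1 count kept (adjusted p = 0.135). Before insulin, the FoxK1 KD samples (226, 225, 224 and 229) and the DKD samples (227, 233, 229 and 213) lay above all Control samples, DKD by less than 1 CPM at the nearest. These basal differences of 0.15 in each did not pass the test (adjusted p = 0.186 and 0.139). After insulin, Txnrd1 was at 255, 236, 209 and 228 in FoxK1 KD, at 245, 212, 247 and 250.4 in FoxK2 KD and at 231, 227 and 224 in DKD. Its insulin effect was 0.04 in FoxK1 KD, 0.16 in FoxK2 KD and 0.01 in DKD. The FoxK2 KD effect passed without FoxK2 KD insulin replicate 2 (0.21, adjusted p = 0.0314).

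Txn1 (chr4:57943373-57956411, − strand) was the least precise of the tested members, with 2345 counts in all and SEs up to 0.34 in log2. Control samples were at 17.0, 17.8, 17.9 and 25.4 CPM at basal and at 30.6, 17.7 and 17.3 after insulin. FoxK1 KD samples ranged from 11.1 to 30.7 at basal and from 20.3 to 27.6 after insulin. Insulin effects between 0.12 and 0.30 in log2 in the 4 genotypes all had intervals that held 0, the widest from -0.32 to 0.65 in Control.

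Prdx1 (chr4:116685544-116700822, + strand) spread widely within groups. In Control it was at 419, 475, 587 and 646 CPM at basal and at 666, 497 and 557 after insulin. In DKD it was at 459, 518, 570.1 and 507 at basal and at 721, 760.0 and 553 after insulin, the last of which lay among the basal values. The DKD insulin effect was 0.40 ± 0.13 (adjusted p = 0.0266), and leaving out any of DKD basal replicates 1, 2 and 4 or DKD insulin replicates 1 and 2 ended the call, with values from 0.31 to 0.40. With the GC trend removed it was 0.31 and was not called either (adjusted p = 0.0558). FoxK1 KD samples went from 548, 626, 473 and 483 to 603, 659, 671 and 651. That effect of 0.28 ± 0.12 did not pass (adjusted p = 0.067). It did pass with the GC trend removed (0.42, adjusted p = 0.00311), when the fit held only the groups compared (0.28, adjusted p = 0.00946), with every gene of at least 1 count kept (0.25, adjusted p = 0.0371) and without FoxK1 KD basal replicate 2 (0.37, adjusted p = 0.0264). FoxK2 KD samples were at 582, 663, 675 and 705, then at 535, 661, 705 and 719. Of the Prdx1 transcript stretches of 50 bases, 8.81% were shared with 75 other genes, the pseudogene Gm21399 most, so that some reads may be split between them. Those genes held 690413 counts beside 64572 for Prdx1.

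Osgin1 (chr8:119434124-119446256, + strand), an NRF2-responsive growth inhibitor, was the single member that fell with insulin. In DKD cells it was at 64.9, 64.0, 74.0 and 51.4 CPM at basal and at 52.2, 46.4 and 45.3 after insulin, with 1 basal sample (51.4) among the insulin values. Control samples were at 46.2, 52.5, 49.1 and 57.1, then 59.3, 57.2 and 51.2. FoxK1 KD samples were at 55.4, 41.3, 44.2 and 52.2, then 59.8, 58.2, 54.6 and 60.1, and FoxK2 KD samples at 48.2, 52.2, 56.2 and 50.8, then 50.3, 40.4, 52.8 and 44.4. The insulin effect in DKD was -0.39 ± 0.12 (adjusted p = 0.0187), against 0.12 ± 0.11 in Control, 0.26 ± 0.11 in FoxK1 KD and -0.14 ± 0.11 in FoxK2 KD. Its difference from Control was -0.51 (95% interval -0.84 to -0.18), which did not pass over all genes (adjusted p = 0.104). Without DKD basal replicate 4, the low one, that difference was -0.60 and passed (adjusted p = 0.0448). The DKD insulin effect lost its call without DKD basal replicate 3 (-0.33), DKD insulin replicate 2 (-0.37) or DKD insulin replicate 3 (-0.35). With the GC trend removed it was -0.28 (adjusted p = 0.0632), and the FoxK2 KD effect was then -0.26 and passed (adjusted p = 0.0401). Without FoxK1 KD basal replicate 1 the FoxK1 KD effect passed (0.34, adjusted p = 0.0267).

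At basal, Osgin1 was higher in DKD than in Control by 0.29 ± 0.11 (adjusted p = 0.0444). Osgin1 has the highest GC content of the members (59.25%), and over all genes the DKD difference at basal followed GC content with a Spearman rho of 0.47. With this trend removed, the Osgin1 difference was 0.08 (adjusted p = 0.632). It also missed the threshold by DESeq2 (adjusted p = 0.0522) and limma-voom (adjusted p = 0.0572), with every gene of at least 1 count kept (adjusted p = 0.154), with only the groups compared (adjusted p = 0.134), with the replicate block (adjusted p = 0.0562), and without any 1 of Control basal replicates 1, 2 and 3 or DKD basal replicates 1, 2 and 3 (0.21 to 0.30).

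Ftl1 (chr7:45457944-45459884, − strand) rose with insulin in both single knockdowns. FoxK1 KD samples were at 3023, 2282, 2656 and 2646 CPM at basal and at 3884, 4505, 3749 and 4369 after insulin. FoxK2 KD samples were at 2655, 3508, 3335 and 3446, then 3739, 4111, 4842 and 4071. In both, the groups did not overlap. The effects were 0.64 ± 0.13 in FoxK1 KD (adjusted p = 0.000192) and 0.37 ± 0.13 in FoxK2 KD (adjusted p = 0.0239). Control samples were at 4754, 3028, 3327 and 2947, then 4371, 3658 and 3754, and DKD samples at 3706, 3436, 4474 and 3417, then 4701, 4294 and 3358. In Control the highest sample was a basal one, and the effect was 0.16 ± 0.13 (adjusted p = 0.408). Without that sample, Control basal replicate 1, which also stood apart over the tested genes, the effect was 0.34 and passed (adjusted p = 0.0292). The FoxK2 KD call was lost without FoxK2 KD basal replicate 1 (0.29, adjusted p = 0.105), without FoxK2 KD insulin replicate 3 (0.30, adjusted p = 0.104) and with the GC trend removed (0.26, adjusted p = 0.0645), whereas the FoxK1 KD call was kept when FoxK1 KD or basal samples were left out and with the GC trend removed. The FoxK1 KD effect differed from that in Control by 0.48 (95% interval 0.10 to 0.85, adjusted p = 0.276), which passed when every gene of at least 1 count was kept (0.46, adjusted p = 0.0359).

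Ftl1 was also lower at basal in FoxK1 KD than in Control, by -0.41 ± 0.13 in log2 (adjusted p = 0.0394). This call was lost without Control basal replicate 1 (-0.22, adjusted p = 0.31), without FoxK1 KD basal replicates 2, 3 or 4 (-0.34 to -0.41), with the GC trend removed (-0.30, adjusted p = 0.0679), with the replicate block (adjusted p = 0.05) and with only the groups compared (adjusted p = 0.227). Of the Ftl1 transcript stretches of 50 bases, 58.4% were shared with 17 other genes, the pseudogene Ftl1-ps1 most. Those genes held 2148 counts beside 392199 for Ftl1, and reads that match several of these genes may have been left out or split.

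**Figure D3:**
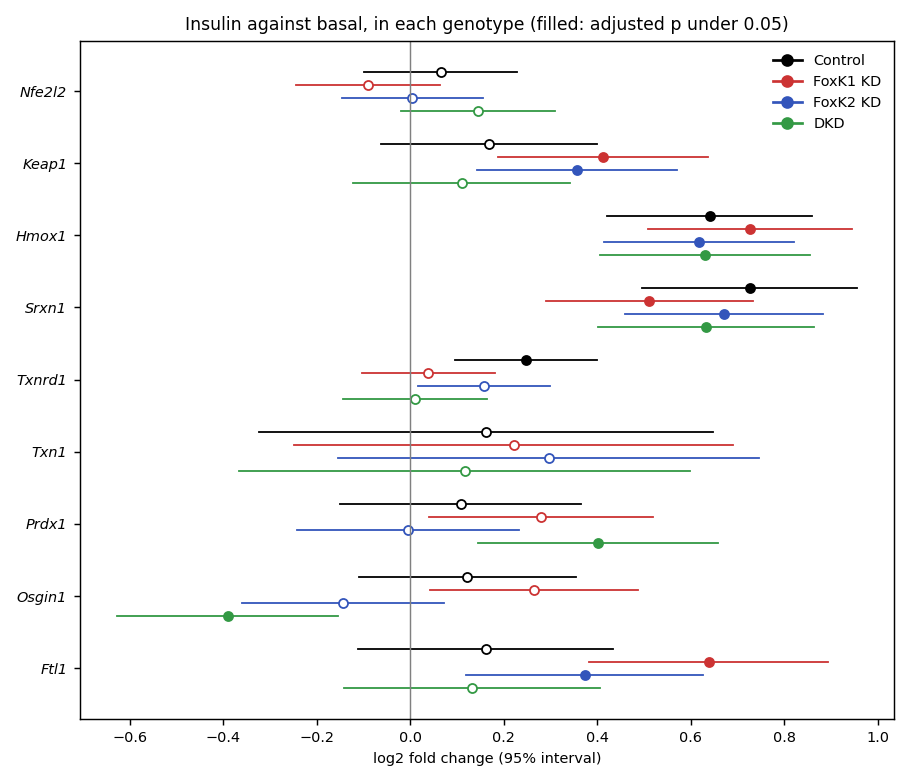
Log2 fold change of insulin against basal in each genotype for the 9 tested genes, with 95% intervals (filled points: adjusted p under 0.05). Hmox1 and Srxn1 are filled in all 4 genotypes, between 0.51 and 0.73, and Nfe2l2 and Txn1 in none.

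By comparison, insulin called 3 of the 9 members up in Control (Hmox1, Srxn1 and Txnrd1), where 12.4% of all genes were called up, and none down, where 13.1% were. In FoxK1 KD it called 4 up (Hmox1, Srxn1, Ftl1 and Keap1) against 16.2% of all genes and in FoxK2 KD the same 4 against 14.4%, with none down (15.4% and 13.7% of all genes). In DKD it called 3 up (Hmox1, Srxn1 and Prdx1) against 8.31% and Osgin1 down against 7.99%. The median log2 insulin effect of the 9 members was 0.16 in Control, 0.28 in FoxK1 KD, 0.30 in FoxK2 KD and 0.13 in DKD, where the median of all tested genes was between -0.01 and 0.01.

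Of the knockdowns at basal, 1 of 9 members was called in FoxK1 KD (Ftl1, down) against 8.09% of all genes, none in FoxK2 KD against 0.378%, and 1 in DKD (Osgin1, up) against 21.1%. At an unadjusted p under 0.05 there were 4, 1 and 2 members. Here and below, counts at this threshold have no share of all genes beside them and are no result about the genes counted. Besides Ftl1, the 4 in FoxK1 KD were Hmox1 (-0.31 ± 0.11, adjusted p = 0.063), Keap1 (-0.23 ± 0.11, adjusted p = 0.178) and Txnrd1. The Hmox1 difference passed without FoxK1 KD basal replicate 1 (-0.42, adjusted p = 0.0184) or Control basal replicate 2 (-0.35, adjusted p = 0.0373). The 3 knockdown comparisons share the same Control samples.

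After insulin no member was called in FoxK1 KD, FoxK2 KD or DKD against Control by edgeR, DESeq2 or limma-voom, where edgeR called 3.59%, 0.0264% and 1.21% of all genes. At an unadjusted p under 0.05 edgeR gave 0, 1 and 0 members. The largest difference was that of Osgin1 in FoxK2 KD (-0.25, 95% interval -0.49 to -0.02). For Hmox1 the differences from Control after insulin were -0.22 in FoxK1 KD (-0.45 to 0.00), 0.00 in FoxK2 KD (-0.21 to 0.22) and -0.04 in DKD (-0.27 to 0.19).

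**Figure D4:**
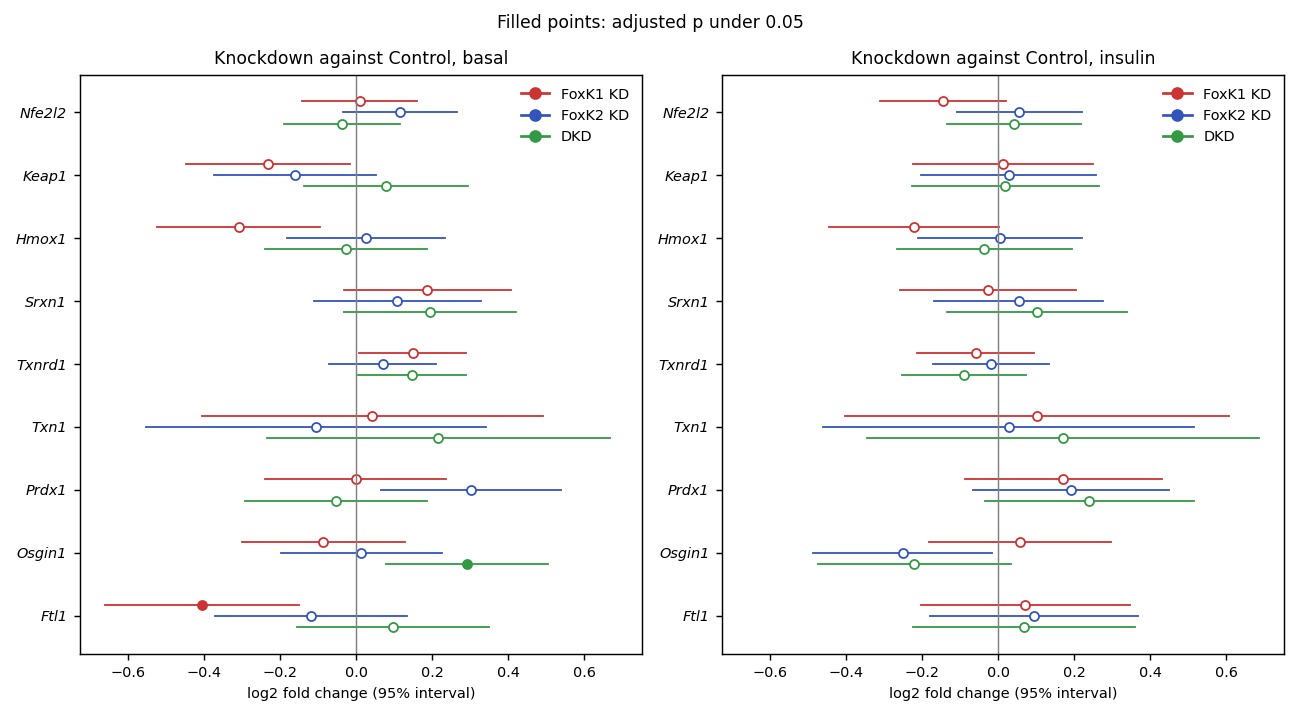
Log2 fold change of each knockdown against Control at basal (left) and after insulin (right) for the 9 tested genes, with 95% intervals (filled points: adjusted p under 0.05). Ftl1 in FoxK1 KD and Osgin1 in DKD are filled at basal, and no gene is filled after insulin.

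Whether insulin acted differently in knockdown and Control cells was tested as an interaction. No member passed by edgeR, DESeq2 or limma-voom in FoxK1 KD, FoxK2 KD or DKD, where edgeR called 0.0%, 0.0% and 1.54% of all genes. At an unadjusted p under 0.05 edgeR gave 1 member in FoxK1 KD (Ftl1), 0 in FoxK2 KD and 2 in DKD (Osgin1 and Txnrd1, the latter at -0.24 with an interval of -0.45 to -0.02). For Hmox1 the insulin effect differed from Control by 0.09 in FoxK1 KD (95% interval -0.22 to 0.40), by -0.02 in FoxK2 KD (-0.32 to 0.28) and by -0.01 in DKD (-0.33 to 0.30). For Srxn1 the differences were -0.21 (-0.53 to 0.10), -0.05 (-0.37 to 0.26) and -0.09 (-0.42 to 0.23).

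At the study's own thresholds the counts of members were set against other backgrounds. With an adjusted p under 0.25, the knockdowns at basal called 4 members in FoxK1 KD (26.6% of all genes), 0 in FoxK2 KD (3.59%) and 3 in DKD (43.6%), and with a fold above 1.5 as well 0 in each (3.6%, 0.792% and 7.6%). After insulin they called 0 in each (15.1%, 0.238% and 6.66%). The insulin effect with a fold above 1.5 called 2 members in Control (12.0%), FoxK1 KD (12.9%), FoxK2 KD (10.7%) and DKD (8.49%). Those were Hmox1 and Srxn1, except in FoxK1 KD, where they were Hmox1 and Ftl1. Without the fold, the interaction called 0 in FoxK1 KD (3.4%), 0 in FoxK2 KD (0.0%) and 1 in DKD (9.88%), which was Osgin1.

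The wider NRF2 pathway was read from a list of 53 other genes in 6 groups, of which 49 were tested. Insulin called 11 of the 49 up and 6 down in Control, where 12.4% of all genes were called up and 13.1% down, and 12 up and 10 down in FoxK1 KD (16.2% and 15.4%). It called 10 up and 9 down in FoxK2 KD (14.4% and 13.7%) and 9 up and 6 down in DKD (8.31% and 7.99%). The median effect of the list was between -0.01 (Control) and 0.14 (FoxK1 KD), where that of all tested genes was between -0.01 and 0.01. With only the groups compared in each fit, the counts were 4 up and 4 down in Control and 13 up and 10 down in DKD. The shares above belong to the fit of all 8 groups. Counts from the smaller fits have no share of all genes beside them and are no result about the list.

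The NADPH supply group had all its insulin calls, over the 4 genotypes, in 1 direction. Of its 6 genes, insulin called 4 up in Control, 5 in FoxK1 KD, 4 in FoxK2 KD and 3 in DKD, against 12.4%, 16.2%, 14.4% and 8.31% of all genes, and none down. Pgd, the phosphogluconate dehydrogenase of the pentose phosphate pathway, rose by 0.62 ± 0.10 in Control, 0.84 ± 0.10 in FoxK1 KD, 0.77 ± 0.09 in FoxK2 KD and 0.57 ± 0.10 in DKD (log2 ± SE, adjusted p from 3.72e-08 to 0.000107). G6pdx, which catalyses the first step of that pathway, rose by 0.44, 0.75, 0.52 and 0.59, and its Control call was lost without Control insulin replicate 1 (0.30, adjusted p = 0.0937) and with only the groups compared (adjusted p = 0.0885).

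Among the detoxification and transport targets, Slc7a11, the cystine and glutamate exchanger, had the steepest rise of the list. It ranged from 5.95 to 9.92 CPM in Control basal samples and from 23.5 to 37.7 after insulin. Its effects were 1.82 ± 0.17 in Control, 1.65 ± 0.19 in FoxK1 KD, 1.78 ± 0.17 in FoxK2 KD and 2.27 ± 0.21 in DKD (adjusted p at most 4.57e-08). Aox1, an aldehyde oxidase, rose by 1.02, 0.65, 0.62 and 0.77. Sesn2, a sestrin of the thioredoxin and peroxiredoxin group, rose by 0.63, 0.70, 0.72 and 0.47. In FoxK1 KD, Sesn1 of the same group and Cat, the catalase, were called down. With each sample left out in turn they ranged from -0.68 to -0.50 and from -0.50 to -0.39 (adjusted p at most 0.0123 and 0.0121). These calls do not set FoxK1 KD apart from FoxK2 KD. In each of these 2 genotypes, insulin called 2 of the 10 tested genes of that group down. It also called 1 of the 3 tested catalase and superoxide dismutase genes down (15.4% and 13.7% of all genes were). In Control and in DKD these counts were 1 and 0 (13.1% and 7.99%). Slc7a11 and Sesn2 shared with Hmox1 and Srxn1 the pattern of every insulin sample above every basal sample.

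Of the list, 6 genes were called up in all 4 genotypes (Aox1, G6pdx, Idh1, Pgd, Sesn2 and Slc7a11) and 4 were called down (Cul3, Maff, Sqstm1 and Txnip), where 3.66% and 2.81% of all genes were. Idh1 and Cul3 are named here because of these counts, after their values were seen. Txnip, which binds and inhibits thioredoxin, fell furthest, from between 8.44 and 11.9 CPM to between 2.21 and 4.22 in Control, with effects of -1.72 ± 0.27 in Control, -2.40 ± 0.27 in FoxK1 KD, -1.78 ± 0.24 in FoxK2 KD and -1.92 ± 0.25 in DKD. The other 3 belong to the partners and regulators of NRF2. Sqstm1, the p62 autophagy receptor that can bind KEAP1, fell by 0.55, 0.44, 0.50 and 0.62 (adjusted p at most 0.000383). Maff, a small MAF partner, fell by 0.55, 0.38, 0.41 and 0.48. Cul3, the scaffold of the ligase that KEAP1 works with, fell by 0.38, 0.37, 0.40 and 0.21. The Cul3 call in FoxK1 KD was lost with the GC trend removed (-0.19, adjusted p = 0.0511). In DKD it was lost when genes of at least 1 count were kept (adjusted p = 0.24) and when DKD basal replicates 2 or 4 or any DKD insulin sample was left out (-0.20 to -0.24). Calls were also lost for Maff in FoxK1 KD without FoxK1 KD basal or insulin replicate 3 (-0.30 and -0.32) and in DKD without DKD insulin replicates 1 or 2 (-0.41 and -0.38). For Idh1, the call was lost in Control without Control insulin replicates 1 or 3 (0.25 and 0.28) or with only the groups compared (adjusted p = 0.127), and in FoxK1 KD without FoxK1 KD insulin replicate 3 (0.23).

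**Figure D5:**
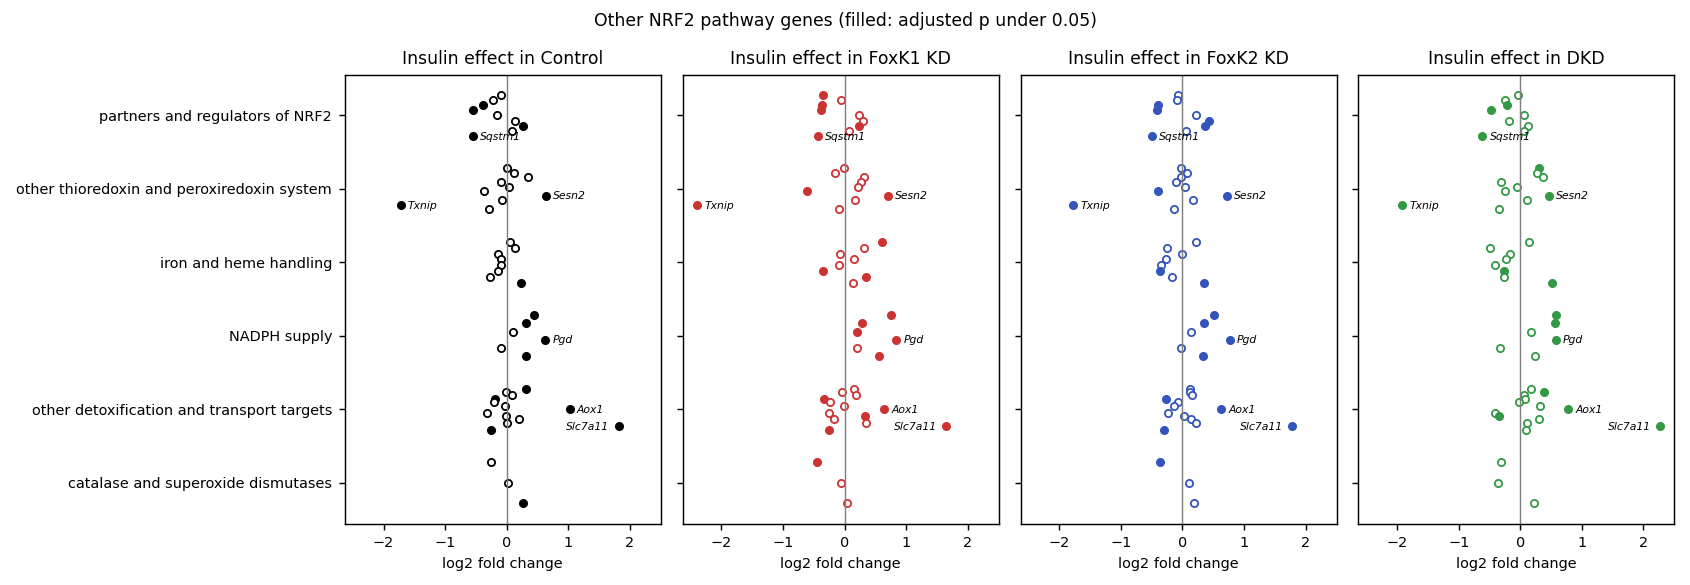
Log2 insulin effect of the 49 other pathway genes by group in each genotype (filled points: adjusted p under 0.05). Slc7a11 lies furthest right, between 1.65 and 2.27, and Txnip furthest left, between -2.40 and -1.72, and the filled NADPH supply genes all lie right of 0.

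The knockdowns at basal called 2 of the 49 up and 7 down in FoxK1 KD (3.39% and 4.71% of all genes) and 4 up and 7 down in DKD (10.3% and 10.8%). In FoxK2 KD none was called by edgeR, DESeq2 or limma-voom, with 9 at an unadjusted p under 0.05 by edgeR. In DKD the lowest were Slc7a11 (-1.02 ± 0.23, adjusted p = 0.00135), Tfrc, the transferrin receptor that brings iron into the cell (-0.67 ± 0.08, adjusted p = 1.04e-07), and Txnrd3 (-0.48 ± 0.17, adjusted p = 0.0372). Tfrc ranged from 417 to 422 CPM in Control and from 244 to 278 in DKD. Sod1 (0.41), Taldo1 (0.38) and Ephx1 (0.36) were highest. With the GC trend removed Taldo1 (0.26, adjusted p = 0.156) and Ephx1 (0.26, adjusted p = 0.0745) were no longer called. With only the groups compared in the fit, Txnrd3 (adjusted p = 0.0854), Ephx1 (adjusted p = 0.0825) and Taldo1 (adjusted p = 0.0537) lost their calls. Txnrd3 also lost it by DESeq2 (adjusted p = 0.05), with every gene of at least 1 count kept (adjusted p = 0.0534) and without Control basal replicates 1, 3 or 4 or DKD basal replicates 1 or 4 (-0.40 to -0.51), and Taldo1 without Control basal replicates 1, 2 or 4 or DKD basal replicates 1, 2 or 3 (0.33 to 0.36). Sod1 lost it without Control basal replicates 2, 3 or 4 or DKD basal replicate 1 (0.35 to 0.39), and Ephx1 without Control basal replicate 3 (0.28). In FoxK1 KD the lowest were Txnrd3 (-0.55), Pgd (-0.46) and Mafg (-0.40) and the 2 called up were Slc40a1 (0.28) and Abcc4 (0.21). None of the 49 was called in FoxK1 KD with only the groups compared in the fit, a count with no share of all genes beside it. Mafg was at -0.17 without Control basal replicate 1 (adjusted p = 0.406) and also lost its call without FoxK1 KD basal replicates 1, 2 or 3, by limma-voom (adjusted p = 0.0611), with the replicate block (adjusted p = 0.0587) and with the GC trend removed (-0.34, adjusted p = 0.0564). With every gene of at least 1 count kept, Abcc4 (adjusted p = 0.22) and Slc40a1 (adjusted p = 0.0597) were not called. Txnrd3 lost it without Control basal replicates 1 or 3 or FoxK1 KD basal replicates 1 or 2 (-0.43 to -0.53), Slc40a1 without Control basal replicate 1 (0.22), and Abcc4 without Control basal replicates 1, 3 or 4 or FoxK1 KD basal replicates 1, 2 or 4 (0.19 to 0.22).

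After insulin, 4 of the 49 were called lower in FoxK1 KD (1.72% of all genes) and 1 in DKD (0.343%), which was Tfrc (-0.39 ± 0.09, adjusted p = 0.0128). In FoxK2 KD none was called by edgeR, DESeq2 or limma-voom, with 0 at an unadjusted p under 0.05 by edgeR. The lowest in FoxK1 KD were Slc7a11 (-0.70 ± 0.16, adjusted p = 0.0102), Tfrc (-0.40 ± 0.08, adjusted p = 0.00241) and Nfe2l1 (-0.33 ± 0.09, adjusted p = 0.0222). Without Control insulin replicate 3 the Slc7a11 difference was -0.51 (adjusted p = 0.116), and without FoxK1 KD insulin replicate 4 it was -0.63 (adjusted p = 0.0502). Tfrc in DKD lost its call without Control insulin replicate 3 (-0.34) or DKD insulin replicates 1 or 2 (-0.39 and -0.36) and with only the groups compared (adjusted p = 0.111). The Nfe2l1 call was lost without Control insulin replicates 1 or 2 or FoxK1 KD insulin replicate 1 (-0.30 to -0.31). No interaction was called among the 49 by edgeR, with 5, 1 and 6 at an unadjusted p under 0.05 in FoxK1 KD, FoxK2 KD and DKD. In DKD, DESeq2 called 2 and limma-voom 1, counts that have no share of all genes beside them and are no result about the list.

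Across the 30 samples, the genes whose log2-CPM tracked each member most closely were ranked by Pearson's r, as a description in which all points share the insulin contrast. Hmox1 was closest to Pgd (0.93), Hyou1 (0.93) and Asns (0.93), and Srxn1 to Pdia4 (0.92), Atp2a2 (0.91) and Hsp90b1 (0.91). Ftl1 was closest to Med11 (0.92), Keap1 to Gss (0.88) and Prdx1 to Snx3 (0.86). Txnrd1 was closest to Ssx2ip (0.75), Txn1 to Krtcap2 (0.74) and Osgin1 to Jup (0.73). Nfe2l2 had no close neighbour, the nearest being Slc30a5 (0.62). Among the members, Hmox1 and Srxn1 had an r of 0.78 and Keap1 and Ftl1 one of 0.75, whereas Nfe2l2 was at 0.31 with Hmox1 and 0.16 with Srxn1. Ranked by Spearman's rho, the top 3 genes of Keap1 and of Srxn1 had no gene in common with those by Pearson's r, those of Nfe2l2 and Prdx1 shared 2 and those of the other 5 shared 1.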

How the data were processed

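RNA-seq was analysed in 30 AML12 samples. The authors deposited raw, unnormalized read counts, 1 value per gene and sample. The submitters' processing notes name CASAVA 1.8, STAR 2.4.2a, featureCounts and GRCm38.p4, and the annotation version, read length and strandedness are not given in the sources used here. Of 49089 identifiers, 48435 were found in GENCODE M21 (GRCm38), which gave symbols, coordinates, length and GC content. The annotation differs from that of the counting, since 41427 identifiers had the same version.

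Genes were filtered with filterByExpr (11368 kept), normalized by TMM and fitted in 1 model of 8 groups with edgeR 4.0.16 (glmQLFit, glmQLFTest, R 4.3.3). Calls were made at a Benjamini-Hochberg adjusted p under 0.05 over all genes. The study itself used limma with 0.25, and a fold above 1.5 for insulin. The SE was the size of the log2 fold change over the root of the F statistic, with 95% intervals from the fit's degrees of freedom. CPM used TMM library sizes, RPKM the union of exons, and correlations log2-CPM with a prior count of 2. Alternatives were DESeq2 1.42.0, limma-voom 3.58.1, filters of at least 1 count in any or 10 in every sample, only the groups compared, a replicate block, a lowess trend on GC content removed (span 0.3), the study's thresholds and each sample left out.

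Members and pathway lists were chosen with earlier results of these data known. Of the 53 other pathway genes, the text names per comparison at most the 3 highest and 3 lowest among those called, and for each member the genes most like it. Cbr3, Txnrd2, Sod3 and Pir did not pass the filter. Of these, Txnrd2 was at 0 CPM in every sample of all 8 groups, and the cause was not tested. Same-numbered samples did not vary together (mean r = -0.01 over 99 pairs, 0.00 over 294 other pairs), so numbers were not taken as pairs. In 42 pairs of samples of a group, chi-square was at least 1.71 per degree of freedom, so none looked like a copy. On simulated counts of 11368 genes, the test recovered 59.7% of genes changed 1.5-fold and 83.6% of those changed 2-fold for insulin in Control, and 38.8% and 73.1% for the DKD interaction. At each of these folds 67 genes were changed, in a single simulation. In the data, insulin called 12.4% of all genes up in Control and 13.1% down. The rates therefore do not give the share of changes recovered in the data.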

Additional observations from a re-analysis of the deposited data

Results flagged for a closer look

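The levels of the 10 genes in the groups of 4 samples, 60 sets in all, were screened for 1 sample standing apart from the other 3, which chance gives in about 1 set in 20. Txnrd1 in FoxK2 KD insulin replicate 2 was at 212 CPM, with the other 3 between 245 and 250 (gap over range 0.85). Txn1 in Control basal replicate 4 was at 25.4 CPM, with the other 3 between 17.0 and 17.9 (gap over range 0.898).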

How the results depend on the processing

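The 117 results were those of 9 members in 13 comparisons, and none reversed direction while called. Their calls were the same in 116 with DESeq2, 116 with limma-voom, 113 with at least 1 count in any sample, 117 with at least 10 counts in every sample, 113 with only the groups compared and 109 with the GC trend removed. With the replicate block 115 were the same. The block left 0 members called in FoxK1 KD and 0 in DKD against Control at basal, and changed no other call, and same-numbered samples were not shown to be paired (5 of 30 correlated best with their own number).

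The 1 member called in FoxK1 KD at basal became 0 with only the groups compared and with the GC trend removed, 4 at an adjusted p under 0.25 and 0 when a fold above 1.5 was added. The 1 member called in DKD at basal became 0 with DESeq2, limma-voom, at least 1 count, only the groups compared and the GC trend removed, 3 at 0.25 and 0 with the fold. For insulin, the 4 called in FoxK1 KD and in FoxK2 KD became 2 in each at 0.25 with the fold, and the 4 in DKD became 2 with the GC trend removed and 2 with the fold. The interaction gave 1 member in FoxK1 KD with at least 1 count kept and 1 in DKD at 0.25. The cause of these changes was not tested.

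With each sample left out in turn, members called ranged from 0 to 2 in FoxK1 KD and 0 to 1 in DKD at basal, for insulin from 2 to 4 in Control, 4 to 5 in FoxK1 KD, 2 to 5 in FoxK2 KD and 2 to 3 in DKD, and from 0 to 1 in the DKD interaction, and stayed at 0 in the other comparisons. Depth limits Nqo1, whose 82 counts kept it out of the main fit.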

Other observations

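The 12 basal samples of Control, FoxK1 KD and FoxK2 KD were set against the other 18, which were DKD at basal and all insulin samples. In those 12 samples 52 genes were lower and 83 higher than in every one of the other 18. None of the 10 members was among them. Both counts are small beside the 11368 genes tested, so this absence is no result about the members. Of the members, Ftl1 had 392199 counts over all samples, Prdx1 64572, Nfe2l2 24804, Txnrd1 24382, Hmox1 6539, Osgin1 5726, Keap1 5052 and Srxn1 4073.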
